A study of Homo sapiens with 30 samples.

Results

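The transcripts of ANKRD1, CCN1, CCN2 and THBS1, 4 genes known as targets of the co-activator YAP, were followed in human small airway epithelial (SAE) cells exposed to nanomaterials. Every probe set (a group of short probes read as 1 value) whose platform annotation names exactly one of these genes was taken. This gave 9 of the 22215 probe sets that are not array controls: 1 for ANKRD1, 2 for CCN1, 1 for CCN2 and 5 for THBS1. They count as chosen by their higher levels 1 h after 100 ug/ml of either particle, which were already known. Comparisons with the 1 h controls, between doses at 1 h and of the controls over time are therefore given as description, without p-values for these genes.

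SAE cells, bought from a commercial supplier and grown as adherent layers in flasks of growth medium, received multi-walled carbon nanotubes (MWCNT), titanium dioxide nanobelts (TiO2) or neither. Doses were 10 or 100 ug/ml, added to the medium, and the RNA of the adherent cells was taken after 1 or 24 h. Controls with 0 ug/ml existed at both times, which makes 10 groups of 3 arrays and 30 arrays in all. The labels call the 3 arrays of a group biological replicates and say neither whether they came from different donors nor how long cells had been plated before exposure. The p-values then rest on the spread between such replicates, pooled over groups and probe sets.

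YAP and its relative TAZ (gene WWTR1) are co-activators held in the cytoplasm by the kinases of the Hippo pathway. When a cell spreads, is stretched or has few neighbours they enter the nucleus, bind TEAD transcription factors and switch on genes of matrix and growth. In airway epithelium the pathway is known for its part in the upkeep of basal cells and in repair. ANKRD1 encodes an ankyrin repeat protein found in the nucleus and in muscle sarcomeres. CCN1 (formerly CYR61) and CCN2 (formerly CTGF) encode secreted matrix proteins that bind integrins, and THBS1 encodes thrombospondin 1, a matrix glycoprotein that can activate latent TGF-beta. The same genes also answer serum response factor (SRF) and TGF-beta, so none of them reads YAP alone.

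Values are log2 expression as deposited, where a difference of 1 is 2-fold. Array medians lay between 7.15 and 7.21, and precision is limited by having 3 arrays a group. Keratins of airway epithelium were high, with KRT18 at 12.92 and KRT7 at 12.42 (means of 30 arrays), and 5 of 9 measured epithelial markers stood above the table's median of 7.18. The secretory markers SCGB1A1, MUC5B, MUC5AC and BPIFA1 stood below it, as did KRT14, KRT15, KRT19 and EPCAM. None of 6 endothelial and 4 smooth muscle markers, 1 of 4 immune markers (CD14) and 2 of 5 alveolar markers (ABCA3 and SFTPC) stood above it. Of 8 fibroblast markers PDGFRB, THY1 and COL1A1 did, while COL1A2, COL3A1, DCN, LUM and PDGFRA did not. The signal of the actin control probes at the 3′ end exceeded that at the 5′ end, a sign of RNA length, by 0.23 to 0.53 at 1 h and by 0.40 to 0.86 at 24 h, with the highest value in control replicate 1 of 24 h.

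The promoters show the letters through which TEAD factors can bind. RefSeq sequences (GRCh38.p14) were matched for 3 of the 4 genes, and the 250 bases before the annotated transcript start are printed 5′ to 3′ on the strand of the gene. Capitals mark the TEAD core GGAATG, which was searched on both strands. The ANKRD1 window is chr10:90921088-90921337 on the minus strand, that of CCN2 is chr6:131951373-131951622 on the minus strand, and that of THBS1 is chr15:39580829-39581078 on the plus strand.
ANKRD1: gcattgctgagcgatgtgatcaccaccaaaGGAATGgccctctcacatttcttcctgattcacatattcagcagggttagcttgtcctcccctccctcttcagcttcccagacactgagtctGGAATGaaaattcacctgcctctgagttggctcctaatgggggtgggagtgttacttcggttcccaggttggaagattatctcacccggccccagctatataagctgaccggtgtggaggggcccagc
CCN2: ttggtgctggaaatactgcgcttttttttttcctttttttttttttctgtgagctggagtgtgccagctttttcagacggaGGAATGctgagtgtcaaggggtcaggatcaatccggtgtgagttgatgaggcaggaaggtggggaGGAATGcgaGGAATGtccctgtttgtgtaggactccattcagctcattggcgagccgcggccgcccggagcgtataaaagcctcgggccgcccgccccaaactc
THBS1: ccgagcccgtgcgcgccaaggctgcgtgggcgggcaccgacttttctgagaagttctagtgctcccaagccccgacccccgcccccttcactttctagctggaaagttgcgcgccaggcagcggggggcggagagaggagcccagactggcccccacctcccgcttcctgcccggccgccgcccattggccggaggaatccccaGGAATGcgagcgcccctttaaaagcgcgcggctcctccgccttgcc

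ANKRD1 had 2 TEAD cores, which begin 220 and 128 bases before the start. CCN2 had 3, at 169, 104 and 95 bases, the last pair close together. THBS1 had 1, at 46 bases. Over the windows of 27305 genes, 14.3% held at least 1 such core, 1.18% at least 2 and 0.106% at least 3. Among 19 other YAP and TEAD targets listed, 14 had a window and 6 of these held a core (AMOTL2, AXL, FOXF2, NUAK2, PTPN14 and TGFB2). ANKRD1 also held 1 match to the AP-1 motif TGANTCA, at 195 bases, a motif found for 8.06% of genes. The CArG box, the letters that SRF reads, was not in these 3 windows and was found for 1.44% of genes. Matches describe letters and are no evidence of binding.

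**Figure D1:**
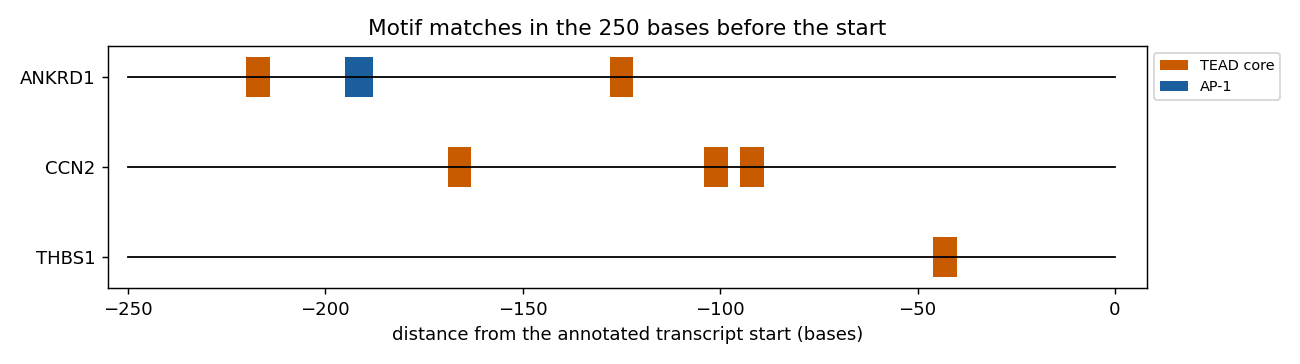
Positions of TEAD core (orange) and AP-1 (blue) matches in the 250 bases before the annotated start of ANKRD1, CCN2 and THBS1; the x axis is the distance from the start in bases. CCN2 has 3 TEAD cores, ANKRD1 has 2 and THBS1 has 1.

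The genes sat in very different parts of the signal range. CCN1 (201289_at) averaged 12.24 over the 30 arrays, above 97.4% of probe sets, and its arrays spanned 10.76 to 13.75. CCN2 reached 14.00, where the highest value of any probe set in any array was 14.65. ANKRD1 averaged 6.05, with 34.6% of probe sets below it, and its arrays spanned 4.67 to 8.01. Of the 9 probe sets 6 had a mean above the table's median, and the 3 below it were ANKRD1 and the THBS1 sets 201107_s_at (5.06) and 215775_at (5.01). Signals of different probe sets do not compare transcript amounts between genes.

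ANKRD1 at 1 h read 5.56, 5.86 and 6.57 in the controls. It read 6.22, 6.70 and 6.63 with MWCNT at 10 ug/ml and 7.26, 7.92 and 7.84 at 100 ug/ml. With TiO2 it read 7.14, 6.99 and 7.18 at 10 ug/ml and 7.98, 7.35 and 8.01 at 100 ug/ml. All exposed arrays but 1 stood above the highest control, and the exception, MWCNT 10 ug/ml replicate 1, overlapped with it. At 24 h all 15 arrays lay between 4.67 and 5.50, below every 1 h array.

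THBS1 (201110_s_at, its brightest set) at 1 h read 10.41, 10.15 and 10.69 in the controls. MWCNT gave 10.62, 11.03 and 10.88 at 10 ug/ml and 11.69, 11.76 and 11.93 at 100 ug/ml. TiO2 gave 10.88, 10.89 and 11.00 at 10 ug/ml and 11.62, 11.73 and 11.73 at 100 ug/ml. The arrays at 100 ug/ml did not overlap with those at 10 ug/ml for either particle, and MWCNT at 10 ug/ml overlapped with the controls.

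CCN2 at 1 h read 13.40, 13.40 and 13.46 in the controls, within 0.06 of each other. MWCNT gave 13.58, 13.69 and 13.57 at 10 ug/ml and 13.94, 13.95 and 14.00 at 100 ug/ml. TiO2 gave 13.62, 13.65 and 13.68 at 10 ug/ml and 13.87, 13.84 and 13.90 at 100 ug/ml. Every exposed array stood above every control, and the doses of each particle did not overlap.

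CCN1 (201289_at) at 1 h read 13.49, 13.36 and 13.33 in the controls. MWCNT gave 13.54, 13.55 and 13.41 at 10 ug/ml and 13.72, 13.75 and 13.74 at 100 ug/ml. TiO2 gave 13.48, 13.53 and 13.49 at 10 ug/ml and 13.70, 13.71 and 13.74 at 100 ug/ml. Both groups at 100 ug/ml stood clear of the controls and of 10 ug/ml, and both groups at 10 ug/ml overlapped with the controls.

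In the order of group means, the 100 ug/ml groups of 1 h were the top pair for each of the 4 genes, followed by the 10 ug/ml groups of 1 h, the 1 h controls and then the 5 groups of 24 h. TiO2 at 100 ug/ml led for ANKRD1 (7.78 ± 0.37 SD against 7.67 ± 0.36 for MWCNT, n = 3), with overlapping arrays. MWCNT led for CCN2, at 13.96 ± 0.03 against 13.87 ± 0.03, with no overlap. For CCN1 and THBS1 the arrays of the top pair overlapped. Between the 10 ug/ml groups, only ANKRD1 among these 4 sets had no overlap, with TiO2 above MWCNT (7.10 ± 0.10 against 6.52 ± 0.26).

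**Figure D2:**
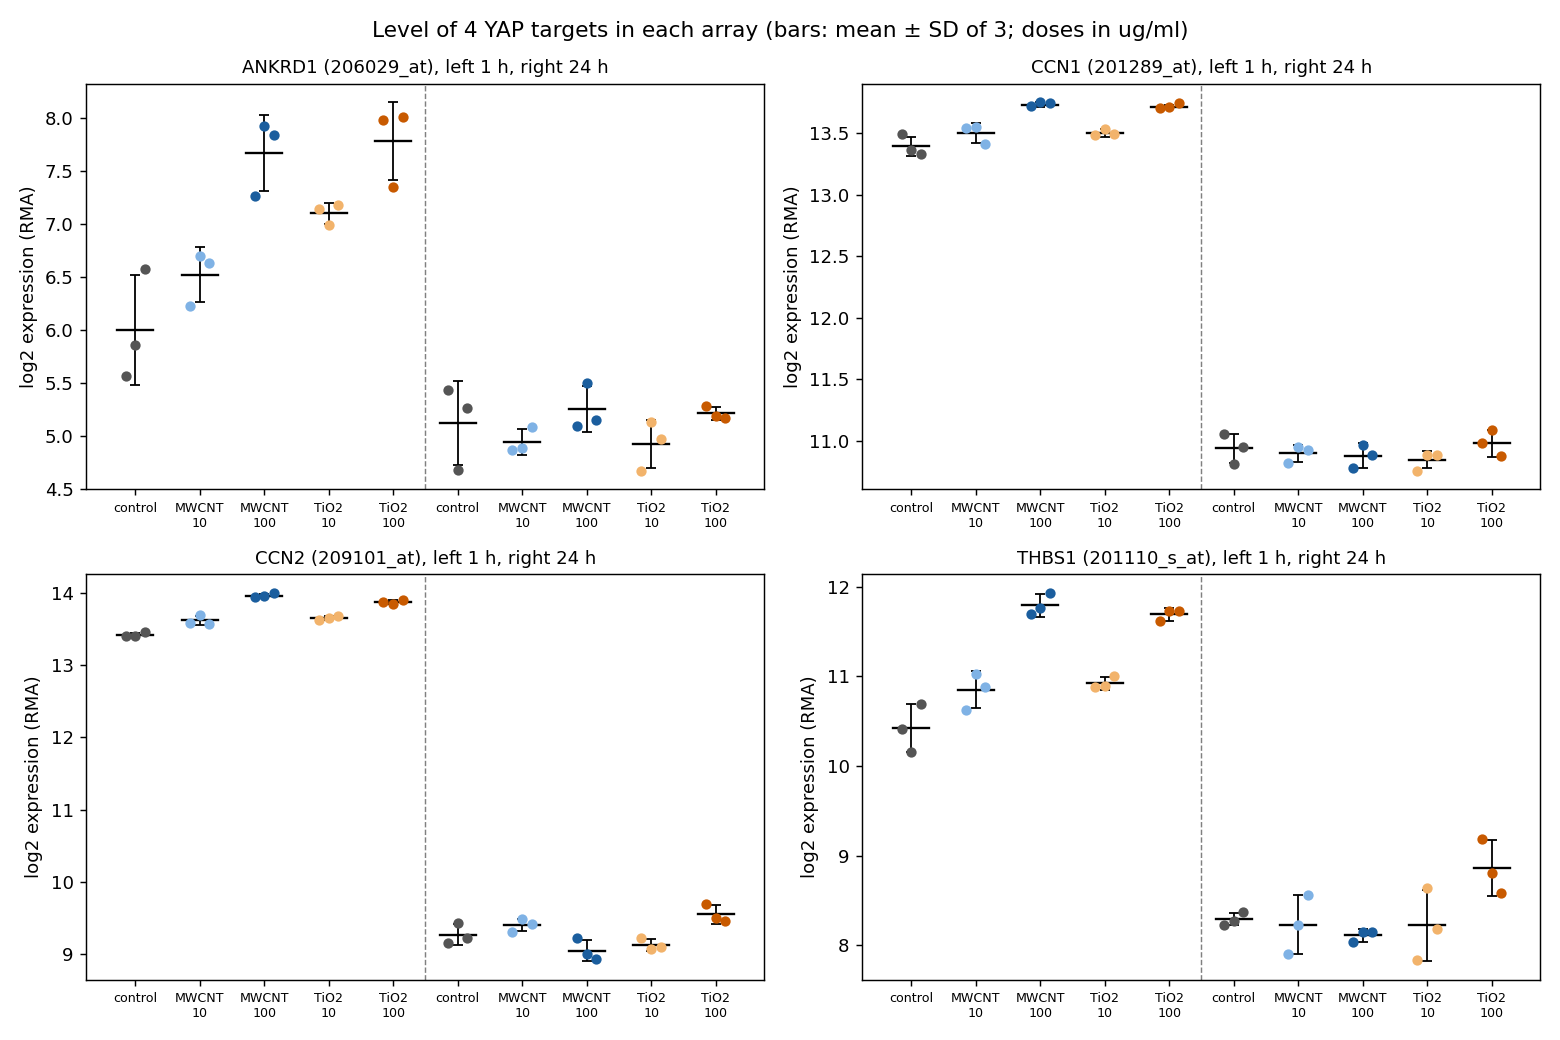
Log2 expression (RMA) of the brightest probe set of each gene in all 30 arrays by group; points are arrays and bars mean ± SD of 3. All 15 arrays of 1 h stand above all 15 of 24 h for each gene, and the 100 ug/ml groups are highest at 1 h.

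Measured against the 1 h controls, ANKRD1 stood higher at 100 ug/ml by 1.68 ± 0.22 (SE) for MWCNT and 1.79 ± 0.22 for TiO2, 3.19-fold and 3.45-fold. At 10 ug/ml it stood higher by 0.52 with MWCNT (0.30 to 0.81 with 1 array left out) and by 1.11 with TiO2. THBS1 (201110_s_at) stood higher by 1.38 ± 0.17 and 1.28 ± 0.17 at 100 ug/ml, 2.60-fold and 2.42-fold, and by 0.43 and 0.51 at 10 ug/ml. The secreted CCN proteins' transcripts differed less. They were already near the top of the signal range in controls, and whether that limited their differences was not tested. CCN2 stood higher by 0.54 ± 0.07 and 0.45 ± 0.07 at 100 ug/ml, 1.45-fold and 1.36-fold. CCN1 stood higher by 0.34 ± 0.07 and 0.32 ± 0.07, 1.27-fold and 1.25-fold, and its other set 210764_s_at by 0.53 and 0.52.

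The THBS1 sets did not read alike. At 100 ug/ml of MWCNT, 201109_s_at stood higher by 1.73 and 201108_s_at by 1.45, and with TiO2 by 1.75 and 1.40. The dim set 201107_s_at differed by 0.59 and 0.53, and 215775_at by 0.01 and 0.14. Both dim sets lay below the median of the table in all groups.

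All 3 exposed arrays stood above all 3 controls for 8 of the 9 sets with MWCNT at 100 ug/ml and for 9 of 9 with TiO2, where 7.03% and 5.87% of all probe sets did so. At 10 ug/ml it was 2 of 9 with MWCNT (9.13% of all) and 8 of 9 with TiO2 (7.78% of all). Since the genes were picked for this contrast, nothing is read from these shares. The median over the 9 sets was 0.26, 0.59, 0.30 and 0.53 for MWCNT 10, MWCNT 100, TiO2 10 and TiO2 100, against medians of all sets between -0.03 and -0.01.

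The part of the 100 ug/ml difference already present at 10 ug/ml varied by gene and by set. For ANKRD1 it was 31.0% with MWCNT and 62.0% with TiO2, and for CCN2 35.8% and 50.8%. For THBS1 it was 31.3% and 39.9% on 201110_s_at, 30.2% and 50.1% on 201109_s_at, and 27.9% and 46.3% on 201108_s_at. For CCN1 it was 31.6% and 32.3% on 201289_at but 48.1% and 57.7% on 210764_s_at. No share is given for the dim THBS1 sets, whose differences at 10 ug/ml were at most 0.21. These shares carry no error of their own and share the control arrays. From 10 to 100 ug/ml, ANKRD1 stood higher by 1.16 with MWCNT and 0.68 with TiO2, THBS1 by 0.95 and 0.77, CCN2 by 0.35 and 0.22, and CCN1 by 0.23 and 0.22. The 100 ug/ml arrays stood above the 10 ug/ml arrays for 8 of 9 sets with each particle (6.06% and 3.88% of all sets).

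**Figure D3:**
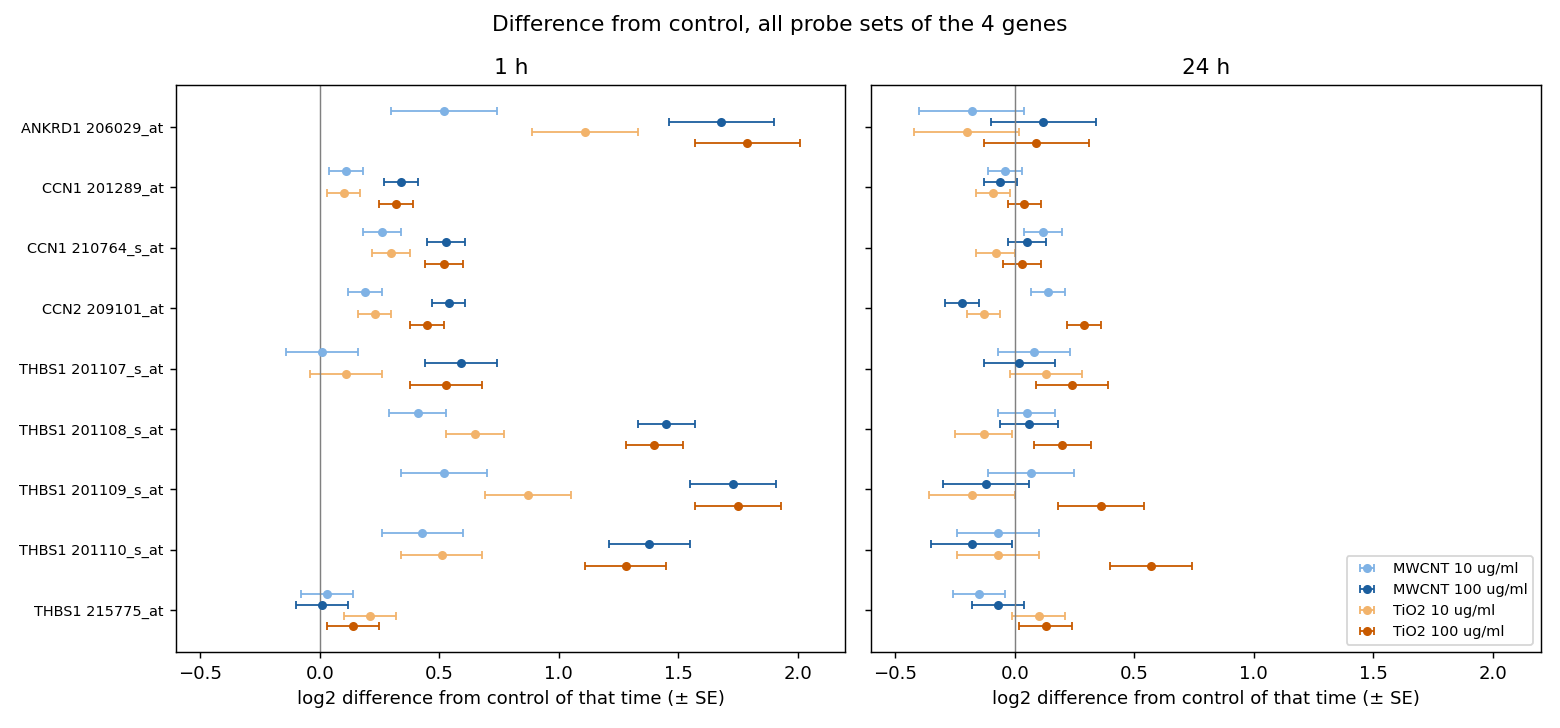
Log2 difference from the control of the same time for all 9 probe sets, with SE bars; light and dark blue are MWCNT at 10 and 100 ug/ml, light and dark orange TiO2. At 1 h ANKRD1 and 3 THBS1 sets reach 1.28 to 1.79 at 100 ug/ml, and at 24 h only THBS1 201110_s_at, at 0.57, exceeds 0.5.

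The particles were set against each other at 1 h. The arrays at 100 ug/ml are among those by which the genes were chosen, so their differences are given with intervals and without p-values. MWCNT minus TiO2 was -0.11 for ANKRD1 (95% interval -0.58 to 0.35), 0.02 for CCN1 (-0.12 to 0.16), 0.09 for CCN2 (-0.06 to 0.25) and 0.10 for THBS1 (-0.25 to 0.46). On the other sets it was 0.01 for CCN1 and between -0.13 and 0.06 for THBS1. The intervals are wider for ANKRD1 and THBS1 than for CCN1 and CCN2. Only CCN2 had all MWCNT arrays above the TiO2 arrays, 1 of 9 sets (5.35% of all).

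At 10 ug/ml and 1 h the difference was tested, with the adjustment over all 22215 probe sets, and none of the 9 passed (limma, adjusted p under 0.05; 0.009% of all sets did, and 2186 sets had an unadjusted p under 0.05). ANKRD1 was lower with MWCNT than with TiO2 by a measured 0.59 ± 0.22 (interval -1.05 to -0.13, adjusted p = 0.406), and the arrays did not overlap. CCN1 differed by 0.00, CCN2 by -0.03 and THBS1 by -0.08. The other CCN1 set differed by -0.04 and the other THBS1 sets by -0.35 to -0.09. All 3 MWCNT arrays lay below the TiO2 arrays for 3 of 9 sets (11.3% of all sets).

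In unexposed cells the 4 transcripts stood far lower at 24 h than at 1 h. CCN2 went from 13.42 ± 0.03 to 9.27 ± 0.15 (SD, n = 3), a difference of -4.16 ± 0.07 or 17.8-fold. CCN1 differed by -2.45 (5.48-fold) on 201289_at and by -3.01 (8.04-fold) on 210764_s_at. THBS1 differed by -2.12 (4.35-fold) on 201110_s_at and by -2.03, -1.05, -0.33 and 0.10 on its other sets, and ANKRD1 by -0.88 ± 0.22 (1.83-fold). All 3 arrays of 24 h lay below all 3 of 1 h for 8 of 9 sets (16.5% of all sets). In bulk cultures fewer cells of a kind and less RNA per cell cannot be told apart. Time since plating and time in the experiment cannot be told apart here.

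At 24 h CCN2 and THBS1 differed from controls with TiO2 at 100 ug/ml. CCN2 read 9.70, 9.50 and 9.46 against 9.15, 9.43 and 9.22 in controls, all 3 above, and rose by 0.29 ± 0.07 (1.22-fold, limma adjusted p = 0.0179). THBS1 (201110_s_at) read 9.19, 8.81 and 8.58 against 8.23, 8.27 and 8.37, again all above, and rose by 0.57 ± 0.17 (1.48-fold, adjusted p = 0.0363). All TiO2 arrays stood above all controls for 3 of 9 sets (11.8% of all sets). CCN2 and this THBS1 set were the 2 of 9 that passed, where 10.4% of all sets passed in either direction and 3.82% upward. For 1 set alone the lowest two-sided p of an exact permutation test with groups of 3 is 0.10, and the calls draw on the variance pooled over sets and groups.

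Both calls were lost when some single arrays were left out. CCN2 stood at 0.23 (adjusted p = 0.0896) without control replicate 1 and at 0.21 (adjusted p = 0.0979) without TiO2 replicate 1. THBS1 stood at 0.54 (limma adjusted p = 0.0992) without control replicate 1 and at 0.56 (0.0746) without control replicate 2. It stood at 0.40 (0.174) without TiO2 replicate 1 and at 0.60 (0.0656) without TiO2 replicate 2. Only without TiO2 replicate 1 was its difference far from the 0.57 of all arrays. Fitted on the 2 groups alone, CCN2 had adjusted p = 0.188 and THBS1 adjusted p = 0.131, where 0.054% of all sets passed. Of all sets 5.4% passed without control replicate 1 and 5.76% without TiO2 replicate 1. Control replicate 1 of 24 h had the lowest mean correlation with its own group of all arrays (0.9952) and the highest actin ratio (0.86).

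The other sets did not pass at this dose and time. THBS1 201109_s_at stood at 0.36 (adjusted p = 0.2), 201108_s_at at 0.20 (adjusted p = 0.262), 201107_s_at at 0.24 (adjusted p = 0.304) and 215775_at at 0.13 (adjusted p = 0.455). ANKRD1 differed by 0.09 (interval -0.37 to 0.55, adjusted p = 0.829) and CCN1 by 0.04 (-0.09 to 0.18, adjusted p = 0.721), with 0.03 on its other set. The same arrays differed in mean levels of marker lists. No secretory or smooth muscle marker and 1 of 4 immune markers stood above the table's median, so shifts in those lists do not show that such cells were present. Mean levels of the epithelial list were 8.14 to 8.18 in controls and 7.84 to 7.98 with TiO2 at 100 ug/ml, and those of the secretory list 5.46 to 5.57 and 5.73 to 5.95. The smooth muscle list stood at 5.87 to 5.88 and 6.06 to 6.07, the fibroblast list at 5.83 to 5.89 and 5.92 to 5.99, and the immune list at 5.13 to 5.14 and 5.24 to 5.35. The endothelial list stood at 5.55 to 5.57 and 5.59 to 5.68, and the alveolar list overlapped, at 6.94 to 6.97 and 6.88 to 7.02. Their part in the CCN2 and THBS1 differences was not tested.

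No set passed with the other exposures at 24 h. With TiO2 at 10 ug/ml (4.71% of all sets passed, 5398 unadjusted) CCN2 differed by -0.13 (adjusted p = 0.273), ANKRD1 by -0.20 (adjusted p = 0.624), CCN1 by -0.09 (adjusted p = 0.394) and THBS1 by -0.07 (adjusted p = 0.826). The other sets stood between -0.18 and 0.13. With MWCNT at 10 ug/ml the values were 0.14, -0.18, -0.04 and -0.07, all with adjusted p = 0.999, where 0.0% of all sets passed (807 unadjusted), and the other sets stood between -0.15 and 0.12. With MWCNT at 100 ug/ml 0.0% passed (1341 unadjusted). There CCN2 differed by -0.22 ± 0.07 (interval -0.37 to -0.06, adjusted p = 0.792), THBS1 by -0.18 (adjusted p = 0.97), ANKRD1 by 0.12 (adjusted p = 0.979) and CCN1 by -0.06 (adjusted p = 0.976), and the other sets stood between -0.12 and 0.06. THBS1 read 8.04, 8.15 and 8.15, all below the controls, which was 1 of 9 sets (5.24% of all).

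**Figure D4:**
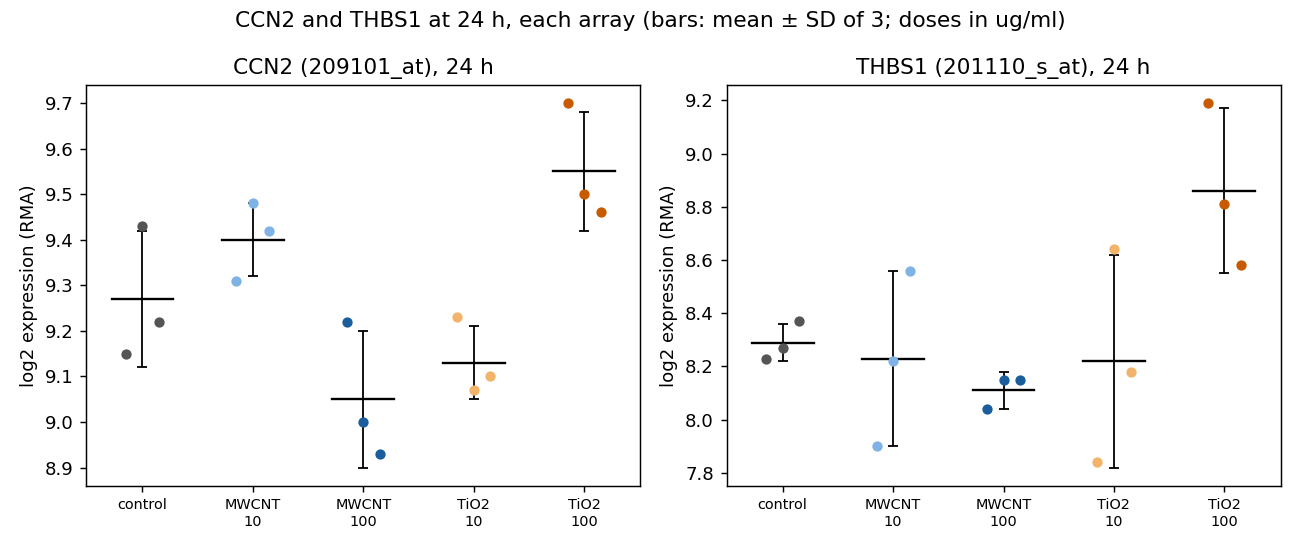
Log2 expression (RMA) of CCN2 and THBS1 at 24 h; points are the 3 arrays of each group, bars mean ± SD. TiO2 at 100 ug/ml is highest in both panels, at 9.55 for CCN2 and 8.86 for THBS1, and MWCNT at 100 ug/ml lowest, at 9.05 and 8.11.

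The particles differed directly at 100 ug/ml and 24 h. CCN2 was lower with MWCNT than with TiO2 by 0.50 ± 0.07 on the log2 scale (9.05 ± 0.15 against 9.55 ± 0.13, 1.42-fold, adjusted p = 0.000263), with readings of 9.22, 9.00 and 8.93 against 9.70, 9.50 and 9.46. THBS1 (201110_s_at) was lower by 0.75 ± 0.17 (8.11 ± 0.07 against 8.86 ± 0.31, 1.68-fold, adjusted p = 0.00992), and without TiO2 replicate 1 it stood at -0.58 with adjusted p = 0.0624. These 2 of 9 passed (8.91% of all sets in either direction, 3.58% lower), and 5 of 9 sets had all MWCNT arrays below all TiO2 arrays (14.4% of all). THBS1 201109_s_at stood at -0.48 (adjusted p = 0.0977), 201108_s_at at -0.14 (adjusted p = 0.463), 201107_s_at at -0.22 (adjusted p = 0.372) and 215775_at at -0.21 (adjusted p = 0.239). ANKRD1 differed by 0.03 (interval -0.43 to 0.50, adjusted p = 0.945) and CCN1 by -0.10 (-0.24 to 0.04, adjusted p = 0.35), with 0.02 on its other set. In these MWCNT arrays the marker lists stood at 7.96 to 8.12 (epithelial, overlapping with TiO2), 5.32 to 5.48 (secretory), 5.87 to 5.89 (smooth muscle), 5.82 to 5.86 (fibroblast) and 4.93 to 5.06 (immune), the last 4 below all TiO2 arrays. The endothelial list stood at 5.52 to 5.58, against 5.59 to 5.68 with TiO2, and the alveolar list overlapped, at 6.89 to 7.0 against 6.88 to 7.02. Their part was not tested.

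At 10 ug/ml and 24 h CCN2 was higher with MWCNT by 0.27 ± 0.07 (9.40 ± 0.08 against 9.13 ± 0.08, 1.21-fold, adjusted p = 0.0431), opposite in sign to the higher dose. It read 9.31, 9.48 and 9.42 against 9.23, 9.07 and 9.10. It was the 1 of 9 sets that passed (3.75% of all), and 2 of 9 had all MWCNT arrays above (16.4% of all). The call was lost without each of the 3 MWCNT arrays (adjusted p = 0.114, 0.0952 and 0.106) and without TiO2 replicate 2 or 3 (0.115 and 0.133). It was also lost after cyclic loess (0.115), with the replicate number as a block (0.0526) and with those groups fitted alone (0.123). In all 5 of 13 alternatives kept it. Of all sets 0.18%, 5.25% and 0.765% passed without MWCNT replicates 1, 2 and 3, and 1.76% after cyclic loess. With those groups alone 0.0% passed, so that loss is not particular to CCN2. ANKRD1 differed by 0.02, CCN1 by 0.05 and THBS1 by 0.01. The other CCN1 set stood at 0.19 (adjusted p = 0.149) and the other THBS1 sets at -0.25 to 0.25.

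Dose at 24 h separated CCN2 for TiO2, with 100 above 10 ug/ml by 0.42 ± 0.07 (1.34-fold, adjusted p = 0.00352). The call was lost when those groups were fitted alone (adjusted p = 0.17), where 0.122% of all sets passed. In the main fit CCN2 was the 1 of 9 sets that passed (0.729% of all), and 3 of 9 had no overlap upward (6.54% of all). THBS1 differed by 0.64 ± 0.17 (adjusted p = 0.0928), ANKRD1 by 0.29 (adjusted p = 0.757) and CCN1 by 0.14 (adjusted p = 0.514), and the other sets by 0.03 to 0.55. For MWCNT none passed (0.0% of all, 522 unadjusted). There CCN2 differed by -0.35 ± 0.07 (interval -0.51 to -0.20, limma adjusted p = 0.895), with all arrays at 100 ug/ml below those at 10 ug/ml. ANKRD1 went the other way, at 0.30 (interval -0.16 to 0.77), with all arrays at 100 ug/ml above. The CCN1 and THBS1 sets stood between -0.19 and 0.07. The share of all sets without overlap was not counted for the MWCNT doses at 24 h. The 24 h comparisons share groups, so their CCN2 values are not separate evidence.

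Other genes of the pathway were put in lists with earlier results of these data known, so their counts are no independent evidence of a direction. The adjusted p of listed genes at 1 h, here and below, are description and no independent test. Other YAP and TEAD targets were measured for 16 of 19 genes listed. At 1 h with MWCNT at 100 ug/ml 3 rose, 0 fell and 13 did not pass (1.53% of all genes passed). F3, the tissue factor that starts clotting, rose by 0.88 ± 0.12 (limma adjusted p = 2.97e-05). AMOTL2, a feedback inhibitor of YAP, rose by 0.45 ± 0.05 and FJX1, a secreted relative of a fly growth regulator, by 0.41 ± 0.07. With TiO2 at 100 ug/ml 4 rose and 0 fell (2.63% of all), F3 by 0.78, AMOTL2 by 0.40, FJX1 by 0.32 and the RNA-binding RBMS3 by 0.51 (adjusted p = 0.0146). The median of the 16 was 0.07 and 0.18, against -0.02 and -0.03 over all genes. No listed target passed at 10 ug/ml and 1 h (0.0315% of all sets passed with MWCNT, 1.27% with TiO2). At 24 h with TiO2 at 100 ug/ml MYOF, a membrane repair protein, rose by 0.28 ± 0.06 (adjusted p = 0.00514) and IGFBP3, which binds insulin-like growth factors, fell by 0.40 ± 0.11 (adjusted p = 0.0223), with 14 not passed. These 2 of 16 are near the share of all genes tested that passed there, 11.5%. Against TiO2, MWCNT at 100 ug/ml and 24 h had MYOF lower by 0.42 and IGFBP3 higher by 0.41. In that comparison 1 of the 16 passed as higher, 1 as lower and 14 did not pass (10.4% of all genes passed). In the controls over time 7 of 16 were lower at 24 h, led by F3 at -2.39 and FJX1 at -2.06 (30.3% of all genes passed in either direction).

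**Figure D5:**
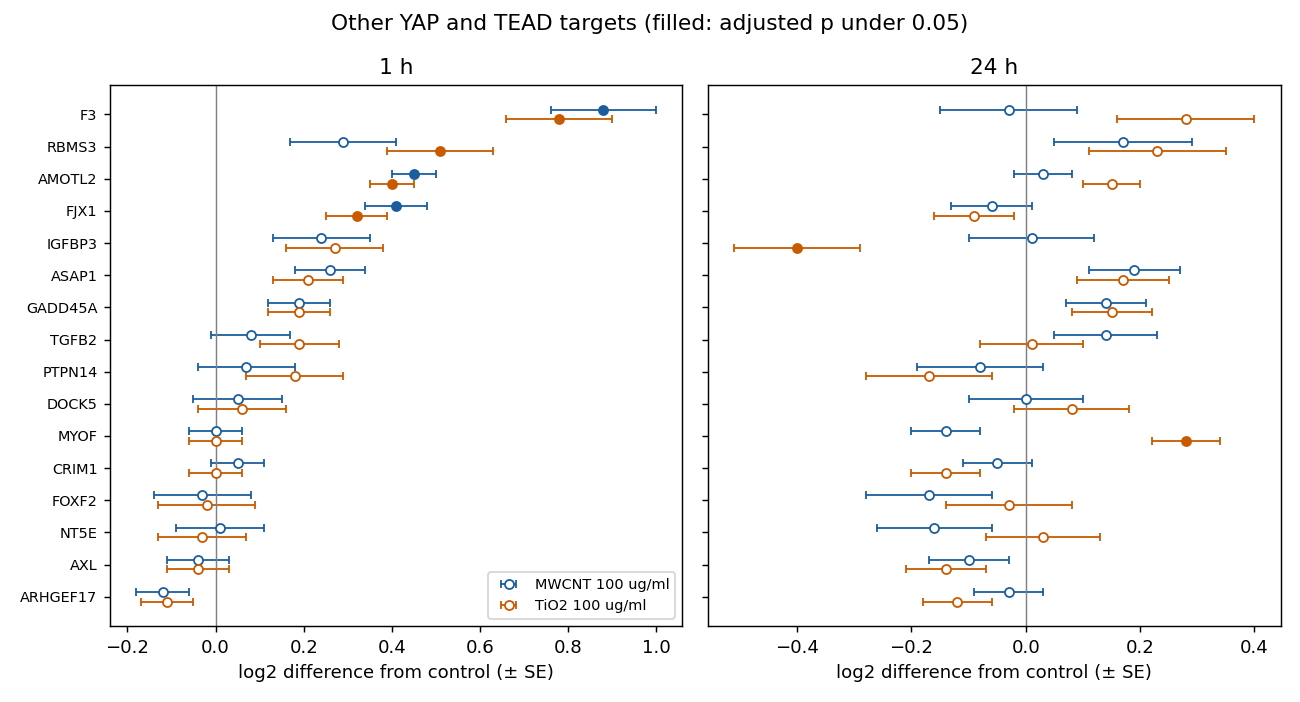
Log2 difference from control (± SE) of 16 other YAP and TEAD targets at 100 ug/ml, 1 h left and 24 h right, MWCNT blue and TiO2 orange; filled points passed limma at adjusted p under 0.05. F3 is the largest at 1 h, at 0.88 and 0.78, and at 24 h only MYOF and IGFBP3 passed, with TiO2.

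Of the pathway's own genes, 17 of 21 were measured, and 11.5% of all genes passed with TiO2 at 100 ug/ml and 24 h and 2.17% at 1 h. At 100 ug/ml and 1 h YAP1 differed from controls by 0.10 (MWCNT) and 0.03 (TiO2), and WWTR1 by 0.09 and -0.02, none passed. VGLL4, which competes with YAP for TEAD, rose with TiO2 at 100 ug/ml by 0.26 ± 0.05 at 1 h (adjusted p = 0.00429, the only one of 17) and by 0.59 ± 0.05 at 24 h (adjusted p = 2.16e-07). At 24 h the kinase gene MAP4K4 fell by 0.30 and the scaffold SAV1 by 0.18, so that 1 rose, 2 fell and 14 did not pass. Against TiO2, MWCNT at 100 ug/ml and 24 h had VGLL4 lower by 0.63 (0.33 on its other set). In that comparison 1 of the 17 genes passed as higher, 1 as lower and 15 did not pass, where 10.4% of all genes passed.

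Of the receptors that CCN proteins and thrombospondin 1 bind, 13 of 13 were measured, and at 24 h with TiO2 at 100 ug/ml the integrin subunit ITGB5 rose by 0.28 ± 0.06 (adjusted p = 0.00443) and the syndecan SDC4 by 0.22 ± 0.05 (adjusted p = 0.0131), 2 of 13 beside 11.5% of all genes. At that dose and time the mean with MWCNT was lower than with TiO2 for both, by 0.37 and 0.17. In that comparison 2 of the 13 passed as lower and 11 did not pass, where 10.4% of all genes passed. The 8 other CCN and thrombospondin genes had none that passed against controls. Of all genes 0.0% passed there with either MWCNT dose at 24 h, and at most 11.5%, with TiO2 at 100 ug/ml and 24 h. Of these 8, 1 was lower with MWCNT than TiO2 at 10 ug/ml and 24 h (3.93% of all genes passed). In the controls 1 was lower at 24 h than at 1 h (30.3% of all genes passed). Of SRF and its MRTF co-activators 3 of 4 listed genes were measured. SRF rose after 1 h at 100 ug/ml, by 0.86 ± 0.06 (MWCNT) and 0.68 ± 0.06 (TiO2; adjusted p = 2.58e-09 and 1.72e-07), 1 of 3 each time, where 1.53% and 2.17% of all genes passed. It rose by 0.28 ± 0.06 with TiO2 at 10 ug/ml and 1 h (adjusted p = 0.0205). These 1 h p-values of SRF are description, since the list was written with earlier results known. At 24 h with TiO2 at 100 ug/ml SRF fell by 0.29 and MRTFB by 0.21, 2 of 3 beside 11.5% of all genes.

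Group means of other genes were correlated with those of each member over the 10 groups, among 6914 genes for ANKRD1 and 6913 for the others. The 10 means fall into 2 times, so a gene that is lower at 24 h scores high, and no p is given. Near to ANKRD1 were EPPK1, a cytoskeletal linker (r = 0.9882), and TAGLN, an actin-binding protein (0.9868), then KLF7 and KLF6. Over the 30 arrays their r ran from 0.954 to 0.97. Nearest to THBS1 were the YAP targets AMOTL2 (0.9961) and F3 (0.9934), then SOX4, CSRP1 and PRSS23. Nearest to CCN1 were DUSP5 (0.9995), TRIB1 (0.9995), MYC (0.9993), ADM (0.9991) and CCN2 (0.999). Nearest to CCN2 were MYC (0.9994), CCN1, DUSP5 and TRIB1 (each 0.999) and ZFP36 (0.9989).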

How the data were processed

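Gene expression was measured on Affymetrix arrays from total RNA labelled through oligo-dT priming, 30 arrays in 10 groups of 3. The deposited values are log2 expression per probe set, made by the authors with RMA, per the submitters' processing notes. RMA corrects background, equalises the arrays' distributions and summarises the probes of a set. Version and genome build are not given in the sources used here.

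The 4 genes and all gene lists were chosen with earlier results of these data known. All probe sets of the 4 genes were considered in all comparisons, some given as a range. Named besides are the up to 4 called members of a list with the largest change, and the 5 genes most correlated with each member, of which 1 for ANKRD1 is not reported here. Values were not renormalised. After 62 array controls were left out, limma 3.58.1 (R 4.3.3) fitted 10 group means to 22215 probe sets, with 20 residual degrees of freedom, two-sided tests and Benjamini-Hochberg adjustment over all probe sets (threshold 0.05). The code was tested on simulated data. A gene outside the 4 is represented by its probe set with the highest mean. "Rose" and "fell" refer to sets past the threshold. For the 4 genes, 7 comparisons that share the 1 h values used to pick them are described only. The same holds for the comparison of the particles at 100 ug/ml and 1 h. Listed genes carry adjusted p in 1 h comparisons, which are no independent tests. Promoter windows came from RefSeq. Tables and plots were made with matplotlib 3.10.9, numpy 2.4.6 and pandas 2.3.3 under Python 3.11.15. Alternatives were a filter on dim sets, 1 set per gene, cyclic loess, array weights, a variance trend, only the compared groups, the replicate number as a block and each array left out.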

Additional observations from a re-analysis of the deposited data

Results flagged for a closer look

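Over the 9 probe sets and 4 exposures there were 8 cases in which all 3 exposed arrays stood above the mean of the controls at 1 h and all 3 stood below it at 24 h. The genes were chosen for their higher levels at 1 h, so the 1 h part of this rule was largely set by that choice. The share of all probe sets that met the rule was not counted, and nothing is read from the number of cases. The differences between the times were not tested. With MWCNT at 10 ug/ml ANKRD1 went from 0.52 to -0.18, a change of -0.70. With MWCNT at 100 ug/ml CCN2 went from 0.54 to -0.22, a change of -0.76. THBS1 went from 1.38 to -0.18 on 201110_s_at, a change of -1.56, and from 1.73 to -0.12 on 201109_s_at, a change of -1.85. With TiO2 at 10 ug/ml CCN1 went from 0.10 to -0.09 on 201289_at, a change of -0.20, and from 0.30 to -0.08 on 210764_s_at, a change of -0.37. CCN2 went from 0.23 to -0.13, a change of -0.36, and THBS1 201108_s_at from 0.65 to -0.13, a change of -0.77. None of the values at 24 h passed against controls.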

How the results depend on the processing

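Directions and calls were recomputed under 7 alternative settings and with each array left out, and no result changed direction past the threshold. Among single sets, 1061 comparisons of a value with its alternative kept their side of the threshold, 11 gained a call and 18 lost one. These counts include MWCNT against TiO2 at 100 ug/ml and 1 h, which the text gives without p-values. The count of member sets called with TiO2 at 100 ug/ml against control at 24 h was 2 (10.4% of all sets). It was 4 with array weights (23.9%), 0 with only the compared groups (0.054%) and 0 to 2 with 1 array left out (4.35% to 10.4%). For MWCNT at 100 ug/ml against control at 24 h it was 0, and 1 (CCN2) with array weights, where 5.61% of all sets passed (0.0% without weights). For MWCNT against TiO2 at 10 ug/ml and 24 h it was 1 (3.75% of all sets). It was 0 after cyclic loess (1.76%), 0 with only the compared groups (0.0%) and 0 to 1 with 1 array left out (0.18% to 5.25%). At 100 ug/ml it was 2 (8.91%), and 1 to 2 with 1 array left out (3.11% to 5.99%). For the TiO2 doses at 24 h it was 1 (0.729% of all sets). It was 2 with the filter on dim sets (2.1%), with array weights (1.69%) and with the variance trend (0.941%). It was 0 with only the compared groups (0.122%) and 1 to 2 with 1 array left out (0.351% to 0.707%). For the MWCNT doses it was 0 (0.0%), and 1 with array weights (0.009%). The cause was not tested, except that a fit of the compared groups alone has fewer arrays.

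Same-numbered arrays of different groups had deviations that correlated at a median of 0.014 over 135 pairs (-0.254 to 0.379). For different numbers the median was -0.004 over 270 pairs (-0.367 to 0.303). These medians pool both times, so they cannot show whether the numbers pair some of the arrays. With the replicate block the count for MWCNT against TiO2 at 10 ug/ml and 24 h was 0 (CCN2 adjusted p = 0.0526), where 3.28% of all sets passed. The block changed no other call of the 4 genes in the text.

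The median over the member sets at 1 h moved to 0.33 and 0.31 (MWCNT 10), 0.96 and 0.96 (MWCNT 100), 0.40 and 0.37 (TiO2 10) and 0.90 and 0.86 (TiO2 100) with the dim filter and with 1 set per gene, which leave 6 and 4 of the 9 sets. For the controls over time it was -2.29 with both, and -2.19 to -1.77 with 1 array left out. Of all probe sets, TiO2 at 100 ug/ml called 2304 at 24 h, 1260 after cyclic loess, 5314 with array weights and 12 with only the compared groups. Signals below the table's median, such as those of ANKRD1, limit what can be seen.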
